A study of Sus scrofa with 36 samples.

Results

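Livers of first-cross (F1) pigs were set against livers of Creole (CR) pigs, all killed under heat stress, across every gene on the array. These 12 samples of the 36 in the series, 6 F1 and 6 CR, were chosen by their breed and temperature labels and by no measured value. All animals were castrated males, and the F1 pigs were born to Large White (LW) and CR parents. Heat-stressed (HS) animals carry 30 °C in their sample labels, while 32 °C stands in the rearing protocol, and thermoneutral (TN) animals were kept at 24 °C. The 12 TN animals of the F1 and CR breeds, and the 12 LW animals, served as reference groups. Per the study's methods each breed came from a few litters whose members were shared out over both temperatures, and pigs shared pens and slaughter days. Litter, pen and day are not in the labels, so animals of a group may not be independent. The p-values rest on the spread between animals within groups, pooled over all 36 arrays. Ages of single animals are not in the labels either.

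A first cross carries 1 genome copy of each parental breed, so its transcript levels can lie at the level of either parent, between them or outside both. The liver makes most plasma proteins, stores and releases glucose and lipids, clears drugs and ammonia, and holds sinusoidal endothelial cells, resident macrophages and stellate cells between its hepatocytes. Under heat, pigs eat less and shift heat production and blood flow, and cells make chaperone proteins.

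Each probe on the array is a 60-base oligonucleotide, and several probes can read the same gene. The first 30 bases of the probes on which the account turns are given here, 5′ to 3′. For MTRF1, both probes shown with capitals were lower in F1, and the capitals mark the 27 bases that they share within the shown stretch; the 3 MTRF1 probes in lower case were not called different.

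MTRF1 A_72_P191081: tatTTTCCTGTACAGGACTGTCCAGCTCTT
MTRF1 O7914: TTTCCTGTACAGGACTGTCCAGCTCTTcaa
MTRF1 A_72_P592384: atagatacttttcgagccaaaggagcagga
MTRF1 A_72_P042321: tacaaggaaattcaggaggctgaacaagcc
MTRF1 A_72_P190681: aactatgtggtatgtgggatctgctgaaaa

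The MIC-2 probes were both higher in F1. The TC592761 probe had the smallest adjusted p of the 39 called probes. The COX2 probes had the highest and the lowest F1 minus CR difference of that mitochondrial gene. No base is marked in these.

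MIC-2 A_72_P172941: atatctcggtggcctggtatcaggatgaga
MIC-2 A_72_P555381: atctgaaatcctggaccagcttcacagaga
TC592761 A_72_P097651: gaccttcgttacctactttccctttgtaag
COX2 A_72_P746371: gaaatacgactactagaagtagacaatcga
COX2 A_72_P729033: taaaaacagatgtatcccaggacgactaaa

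The median probe signal lay between 73.0 and 92.0 intensity units on the F1 HS arrays and between 75.5 and 85.0 on the CR HS arrays. In 5 measures of the arrays no difference between the groups was detected (smallest p = 0.279, exact two-sided permutation test, smallest p allowed 0.00216). Hepatocyte markers were at the top of the scale in both groups, with a mean log2 level over the list of 18.00 to 18.08 in F1 and 17.98 to 18.13 in CR. On the first principal component of the 12 arrays (22.5% of the variance), F1 HS replicates 1 and 2 lay at -46.3 and -50.6, apart from the other F1 animals at -4.03 to 40.2. On the second (13.5%), CR HS replicates 5 and 6 lay at -44.3 and -44.8.

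Under heat, F1 and CR livers differed at a small number of probes, and none of the 22 pathway lists examined, from heat shock chaperones to bile acid synthesis, held a gene that passed the test. A probe was called when its Benjamini-Hochberg adjusted p from limma over the 44796 kept probes was under 0.05. F1 and CR differed at 39 probes (0.0871%), 19 higher in F1 (0.0424%) and 20 lower (0.0446%). They stood for 14 named genes, of which 13 are described here, and 18 probes with no gene name. Without adjustment, 3867 probes (8.63%) stood under 0.05, and 1054 of 11469 genes (9.19%) did so at their brightest probe. Differences are F1 minus CR in normalised log2 signal, so 1 means a doubling. Over all kept probes their median was -0.00317 and their median size 0.0821, and 144 probes differed by 1 or more. The number called depended on which animals were in the comparison. Without F1 HS replicates 1 and 2 and F1 TN replicate 3 it was 97, of which 29 were among the 39. Without CR HS replicates 5 and 6, a setting added after seeing the data, it was 45, of which 20 were. Both sets were left out because their arrays stood apart in these data, so both counts rest on a choice by measured values. Without F1 HS replicate 3 or 5 it was 19 or 20, without CR HS replicate 2, 3, 4 or 5 it was 25, 17, 17 or 21, and without CR HS replicate 1 it was 59. A fit of the 12 arrays alone called 11 probes, 6 of them among the 39. Each of the 5 slides held both groups, but the 12 arrays spread over 5 slides left few animals of a group on each. On slide 1 the difference was that of F1 HS replicate 1 and CR HS replicate 1. Within slides, all called probes but TC592490 had the sign of the whole comparison on every slide. The slides split the same arrays on which the probes were called, so the call itself favoured this agreement. MTRF1 ranged from -1.56 to -0.61, NOL11 from -0.59 to -0.23, POSTN from 0.38 to 1.31 and TC592490 from -0.08 to 1.42. TEX10 differed by only -0.01 on slide 5 and DY427469 by only -0.03 on slide 1.

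Of the 14 genes, 7 were higher in F1 and 7 lower. Those higher were a ligand of natural killer cells (MIC-2), an extracellular matrix protein (POSTN), a secreted growth factor (ANGPTL6), a sinusoidal endothelial lectin (CLEC4G), a nuclear RNA-processing factor (C1D), a nucleotide synthesis enzyme (PRPS2) and a regulator of vesicle traffic (TBC1D1). Those lower and described were a transporter of fatty acids (SLC27A1), an aminotransferase (KYAT3), a phospholipase (PLA2G16), a pair of ribosome assembly factors (NOL11 and TEX10) and a mitochondrial translation factor (MTRF1). Folds ran from 1.26 to 2.04. Of the 13 genes, 10 were named by the rule stated under the methods, while POSTN, TBC1D1 and MTRF1 were called at probes other than their brightest and were named after their values were seen. Of the 39 called probes, 25 had groups that did not overlap (64.1%, against 0.42% of kept probes), a share that the test itself favours.

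**Figure D1:**
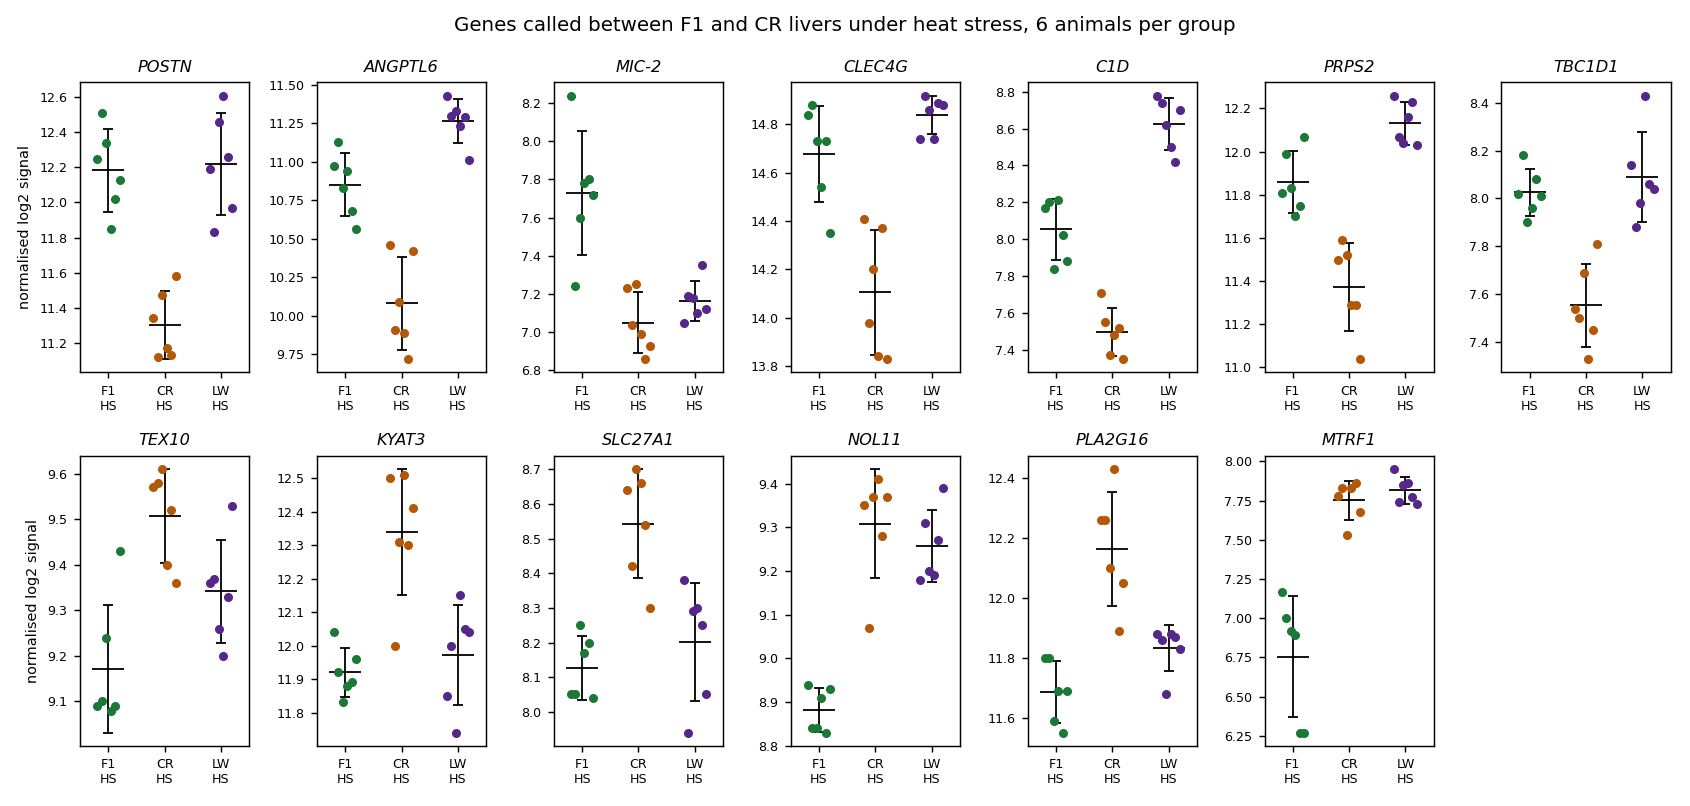
Normalised log2 signal (vertical axes, 1 scale per panel) of 1 called probe of each of the 13 described genes in F1 HS, CR HS and LW HS animals, 6 points per group, with the mean (dash) and SD (bars). The probe is the gene's brightest where that was called, and otherwise its called probe with the smallest p. MIC-2 is shown at the position 589 probe, where the groups overlap. Genes run from the largest positive to the largest negative F1 minus CR difference. In 9 of the 13 panels the F1 and CR points do not overlap, and for MTRF1 and NOL11 the LW HS animals lie with CR rather than with F1.

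Among secreted and cell surface proteins, MIC-2 is related to class I histocompatibility chains and belongs to the family of ligands for an activating receptor of natural killer cells. At its probe at transcript position 712, F1 HS animals read 6.55 at the lowest, 7.21 in the median and 7.75 at the highest, and CR HS animals 5.96, 6.12 and 6.54. The groups touched but did not overlap, F1 replicate 2 being the low one. The difference was 1.03 (2.04-fold, SE 0.205, limma adjusted p = 0.0316). At the probe at position 589, F1 HS read 7.24 to 8.24 and CR HS 6.86 to 7.25, a difference of 0.68 (limma adjusted p = 0.0467). An unnamed probe, OTTSUST00000001125, has the same 60 bases as the former and differed by 1.13 (limma adjusted p = 0.00943). The probe of the opposite strand differed by 0.02. LW HS animals read 6.38 ± 0.15 (SD, n = 6) at the position 712 probe, near CR. The gene was not placed on a chromosome in the RefSeq table used.

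POSTN, on chr11:13225183-13258973 (Sscrofa11.1), codes for periostin, a matrix protein that fibroblasts secrete. At its most different probe, F1 HS animals read 11.85, 12.19 and 12.51 (lowest, median, highest) and CR HS animals 11.12, 11.25 and 11.58. Every F1 animal was above every CR animal. The difference was 0.88 (1.84-fold, SE 0.157, limma adjusted p = 0.0103), and LW HS animals read 12.22 ± 0.29 (SD, n = 6), at the F1 level. All 8 kept POSTN probes were higher in F1, by 0.35 to 0.88, and 3 were called. A called pair shares 32 bases. Along the transcript, the probe at position 2601 differed by 0.37, those at 2717 and 2727 by 0.81 and 0.88, and those at 2768 and 2835 by 0.64 and 0.61, the last pair not called. The 10 markers of stellate cells and fibroblasts had none called and a median difference of 0.165, with 7 of 10 higher in F1. Their mean log2 level ran from 10.29 to 11.10 in F1 and from 10.23 to 10.80 in CR, and DCN (decorin) differed by 0.34 (limma adjusted p = 0.734). Their part in the POSTN result was not tested. In whole liver, more cells of a type and more RNA per cell cannot be told apart.

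ANGPTL6, on chr2:68947067-68958820, is an angiopoietin-like growth factor that the liver secretes. F1 HS animals read 10.56, 10.88 and 11.13 (lowest, median, highest) and CR HS animals 9.72 to 10.46 around a mean of 10.08. The groups did not overlap, with CR replicates 1 and 6 nearest to F1. The difference was 0.77 (1.7-fold, SE 0.158, limma adjusted p = 0.0415), from the gene's single kept probe, and LW HS animals read 11.27 ± 0.142 (SD, n = 6).

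CLEC4G, on chr2:71433406-71436570, is a lectin of liver sinusoidal endothelial cells. F1 HS animals read 14.35, 14.73 and 14.88 (lowest, median, highest) and CR HS animals 13.83, 14.09 and 14.41. F1 replicate 6 was the only F1 animal within the CR range. The difference was 0.57 (1.49-fold, SE 0.117, limma adjusted p = 0.0411). Its dimmer second probe differed by 0.74 (limma adjusted p = 0.296), with F1 replicates 1 and 2 at 9.83 and 10.11, the other F1 animals at 8.37 to 8.86 and CR at 8.08 to 8.56. Without F1 HS replicates 1 and 2 and F1 TN replicate 3, the CLEC4G difference at the called probe was 0.48 (limma adjusted p = 0.125). Of the 9 kept endothelial markers, CLEC4G included, 7 were higher in F1, the median difference was 0.219, and 1 (CLEC4G) was called. KDR, the main receptor of vascular endothelial growth factor, differed by 0.52 and the scavenger receptor STAB1 by 0.20, neither called, while VWF differed by -0.08 and TEK by -0.01. At TN KDR differed by 1.0, more than under HS, STAB1 by 0.12 and CLEC4G by 0.05, and the median of the list was 0.01. STAB2 did not pass the filter on dim probes. The mean log2 level of the list ran from 9.43 to 10.07 in F1 and from 9.39 to 9.78 in CR. The part of endothelial cell content in the CLEC4G result was not tested.

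Among intracellular genes, C1D (chr3:74133665-74153756) codes for a cofactor of the nuclear exosome, which trims RNA. In F1 HS the readings were 7.84, 8.09 and 8.21 (lowest, median, highest) and CR HS animals 7.35, 7.5 and 7.71, with no overlap. The difference was 0.56 (1.47-fold, SE 0.0983, limma adjusted p = 0.0103), and LW HS animals stood higher than both at 8.63 ± 0.143 (SD, n = 6). Its second probe differed by -0.10, so the probes of C1D did not move together.

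PRPS2 (chrX:9505034-9531044) makes phosphoribosyl pyrophosphate, the starting material of nucleotide synthesis. Readings in F1 HS were 11.70, 11.82 and 12.07 (lowest, median, highest) and CR HS animals 11.04, 11.39 and 11.59. The groups did not overlap, and the difference was 0.49 (1.4-fold, SE 0.0955, limma adjusted p = 0.0266). LW HS animals read 12.13 ± 0.0995 (SD, n = 6). The other kept probes differed by 0.42 and -0.05.

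TBC1D1 (chr8:29370344-29590574) acts on Rab proteins that steer glucose transporter vesicles. The F1 HS readings were 7.90, 8.02 and 8.18 (lowest, median, highest) and CR HS animals 7.33, 7.52 and 7.81. The groups did not overlap, and the difference was 0.47 (1.39-fold, SE 0.0859, limma adjusted p = 0.0137). The 3 other TBC1D1 probes, among them the brightest, differed by -0.08 to 0.05.

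Lower in F1 was SLC27A1 (chr2:60203374-60235689), a fatty acid transport protein. Its F1 HS readings were 8.04, 8.11 and 8.25 (lowest, median, highest) and CR HS animals 8.30, 8.59 and 8.70. No F1 animal reached the CR range. The difference was -0.42 (1.33-fold lower, SE 0.0738, limma adjusted p = 0.0103). LW HS animals read 8.20 ± 0.169 (SD, n = 6), and the other SLC27A1 probe differed by -0.16.

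Among enzymes, KYAT3 (chr4:127451475-127507766), an aminotransferase that can turn kynurenine into kynurenic acid, read 11.83, 11.91 and 12.04 (lowest, median, highest) in F1 HS and 12, 12.36 and 12.51 in CR HS. CR replicate 2 was the single CR animal within the F1 range. The difference was -0.42 (1.34-fold lower, SE 0.0807, limma adjusted p = 0.0266). A probe listed under the gene's older symbol CCBL2 shares 54 bases with it and differed by -0.41 without being called. PLA2G16 (chr2:8410540-8444604), a phospholipase best known from fat cells, read 11.55, 11.69 and 11.80 in F1 HS and 11.89, 12.18 and 12.43 in CR HS, with no overlap. Both kept PLA2G16 probes were called, each at -0.48 (limma adjusted p = 0.0266 and 0.036).

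NOL11 (chr12:14035649-14058421), needed for making and processing ribosomal RNA in the nucleolus, had the most even F1 values of the 13 genes. F1 HS animals read 8.83, 8.88 and 8.94 (lowest, median, highest) and CR HS animals 9.07, 9.36 and 9.41. The difference was -0.43 (1.34-fold lower, SE 0.0655, limma adjusted p = 0.00165). LW HS animals read 9.26 ± 0.0833 (SD, n = 6), at the CR level, and the second NOL11 probe differed by -0.02. TEX10 (chr1:242058035-242120547), a subunit of a complex in large ribosomal subunit assembly, read 9.08, 9.09 and 9.43 in F1 HS and 9.36, 9.54 and 9.61 in CR HS. F1 replicate 6 overlapped with CR. Its difference was -0.34 (1.26-fold lower, limma adjusted p = 0.0467), and its second probe differed by 0.03.

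MTRF1 (chr11:25603784-25638576), a release factor of mitochondrial translation, had the largest difference among the genes lower in F1. F1 HS animals read 6.27, 6.90 and 7.17 (lowest, median, highest) and CR HS animals 7.53, 7.80 and 7.86. F1 replicates 5 and 6, both at 6.27, were the lowest, and no F1 animal reached CR. The difference was -1.0 (2-fold lower, SE 0.143, limma adjusted p = 0.000525). LW HS animals read 7.82 ± 0.0851 (SD, n = 6), so F1 lay below the levels of both breeds at this probe. The other called MTRF1 probes differed by -0.86 and -0.94 (limma adjusted p = 0.00943 and 0.00509). The 3 called probes share 57 to 60 of 60 bases, at positions 1816 and 1819 where these are given, and so are 1 measurement rather than 3. The other 3 probes, 2 of them at positions 686 and 1232 of the same transcript, differed by 0.05 to 0.08. The lower reading was thus seen at 1 stretch of the transcript and not at the probes elsewhere.

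**Figure D2:**
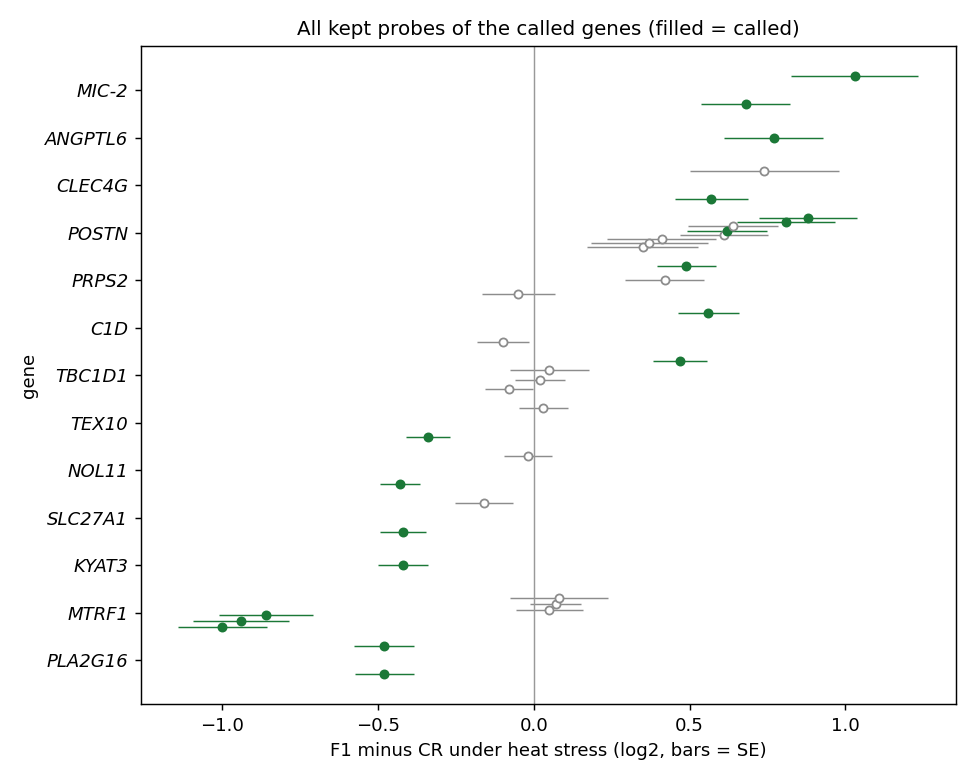
F1 minus CR difference under heat stress (horizontal axis, log2 signal, bars are the SE) of every kept probe of the 13 genes (vertical axis); filled points are called probes. The POSTN, MIC-2 and PLA2G16 probes lie on 1 side of 0, while MTRF1, TBC1D1, C1D and TEX10 have called probes away from 0 and others near it.

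When each gene was given the mean of its kept probes, 7 of 11469 genes were called, all among the 14. Of the 13 described, 6 were called, namely MIC-2 at 0.86 (limma adjusted p = 0.0364), ANGPTL6 at 0.77, SLC27A1 at -0.29, KYAT3 at -0.42, MTRF1 at -0.43 and PLA2G16 at -0.48. The other 7 were then not called. The MTRF1 mean took in 6 probes, of which the 3 called ones read nearly the same bases, so 1 measurement entered it 3 times. Its other 3 probes differed by 0.05 to 0.08.

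The same contrast at 24 °C, in other animals of the same breeds, showed which of these differences were also present without heat. All 39 probes called under HS had the same sign at TN, against 57.6% of all kept probes. At an unadjusted p under 0.05 with that sign stood 30 of them (76.9%, against 6.47% of all; 8.47% of all with either sign). The groups did not overlap at TN for 10 of them (25.6%, against 0.498% of all). The TN contrast itself called 34 probes (0.0759%), and 7 were called in both, which is 17.9% of the HS calls and 20.6% of the TN calls. The shared named genes were C1D and KYAT3. C1D differed by 0.71 at TN (limma adjusted p = 0.000356) and KYAT3 by -0.48 (limma adjusted p = 0.00399). Of the 34 TN calls, 34 had the same sign under HS. HS and TN animals may be littermates, so the contrasts are not wholly independent.

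**Figure D3:**
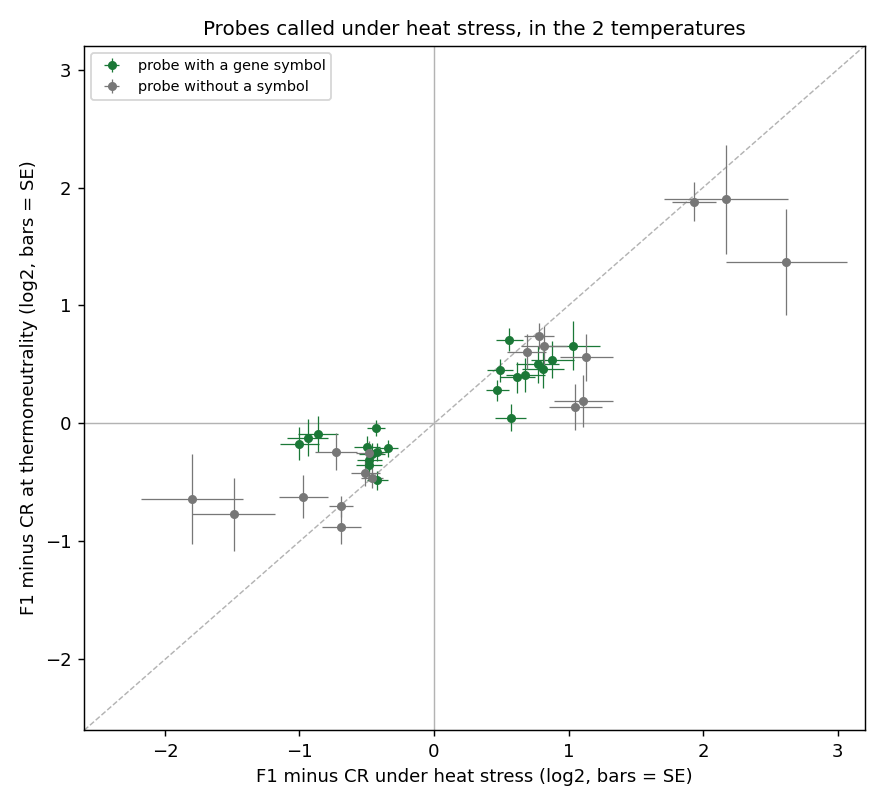
F1 minus CR difference under heat stress (horizontal axis) against the same difference at thermoneutrality (vertical axis), in log2 signal with SE bars, for the 39 probes called under heat stress; the dashed line marks equal differences and green points have a gene symbol. All 39 points lie in the quadrants of equal sign.

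Whether the breed difference changed with temperature was the question of the interaction term. It called 0 probes (smallest limma adjusted p = 0.999), with 1580 (3.53%) under 0.05 before adjustment. By unadjusted p, the smallest among the genes' brightest probes was that of NOL11, which differed by -0.43 under HS and -0.04 at TN (unadjusted p = 0.000184 in limma). For MTRF1 the differences were -1.0 and -0.17 (unadjusted p = 0.00025 in limma) and for CLEC4G 0.57 and 0.05 (unadjusted p = 0.00318 in limma). A change with temperature was therefore not established for any of them.

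IGFBP2, the insulin-like growth factor binding protein that the liver secretes in low-energy states, was not called. F1 HS animals read 14.49, 14.94 and 15.57 (lowest, median, highest) and CR HS animals 15.37, 15.64 and 16.11. F1 replicate 4 alone reached into the CR range. The HS difference was -0.73 (limma adjusted p = 0.0654), the TN difference 0.16 and LW HS animals had a median of 15.59. TRIP6, a LIM-domain adaptor protein, differed by 0.75 under HS and -0.44 at TN, the sterol-binding protein OSBP by 0.26 and -0.13, and the RNA-binding protein QKI by 0.13 and -0.34. None of these 4 genes was called under HS or in the interaction.

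Set beside the parental breeds at TN, where LW and CR were compared in animals that are not among the 12, 35 of the 39 probes had the sign of LW minus CR (59.4% of all kept probes had equal signs). LW minus CR was itself called at 20 of the 39 (51.3%, against 4.44% of all), with the F1 sign in each. PRPS2 differed by 0.76 in LW minus CR at TN, C1D by 1.00, POSTN by 0.78, ANGPTL6 by 0.77 and KYAT3 by -0.48. MTRF1 differed by 0.01 there, NOL11 by 0.04 and TEX10 by -0.07, all 3 with no call. MIC-2 differed by 0.31 at the position 712 probe, also not called. The genes whose F1 level departed from CR thus included some where LW departed too and others where it did not.

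Each HS animal was also placed on a scale where 0 is the CR TN mean and 1 the LW TN mean, as the median over 176 probes that separated LW TN from CR TN by 1 log2 unit or more. F1 HS animals lay at 0.57, 0.606, 0.426, 0.371, 0.32 and 0.296 from replicate 1 to 6 in accession order, with a median of 0.398. CR HS animals lay at -0.103 to 0.0992 and LW HS animals at 0.925 to 1. All F1 animals thus lay apart from both breeds, and replicates 1 and 2, which stood apart on the first principal component, were the nearest to LW. F1 TN animals lay at 0.359 to 0.682.

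Among the called probes, those with no gene name held the largest differences. TC592761, whose file entry describes a sequence like dog coiled-coil domain containing 17, read 6.75, 7.04 and 7.88 (lowest, median, highest) in F1 HS and 5.03, 5.20 and 5.62 in CR HS, where it was well above background on 1 of 6 arrays. The difference was 1.93 (limma adjusted p = 7.12e-09). It ran from 1.42 to 4.4 over the processing alternatives. At TN, where CR was well above background on 2 of 6 arrays, the difference was 1.88, and LW HS animals read 7.31 ± 0.109 (SD, n = 6). OTTSUST00000001101 differed by 2.62 (6.16-fold, limma adjusted p = 0.00943), with F1 HS at 10.70 to 12.25 and CR HS at 8.24 to 9.36 except replicate 1 at 11.33. CN157163 differed by 2.17 (limma adjusted p = 0.0477), with F1 HS at 7.99 to 8.95 and CR HS at 5.24 to 6.04 except replicate 6 at 8.83. In both, a single CR animal read at the F1 level.

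XM_003128411, described in the file as like DNA polymerase eta, was higher in F1 by 1.11 and TC591343 by 1.05. A_72_P352383 differed by 0.78 (limma adjusted p = 0.000488) and by 0.74 at TN. Lower in F1 were TC538964 by -1.80, CK458697 by -0.97 and TC553889 by -0.69 (limma adjusted p = 0.000146), the last also called at TN at -0.70. In F1, TC553889 was well above background on only 4 of 6 HS arrays and 2 of 6 TN arrays. Its HS difference ran from -1.71 to -0.44 over the processing alternatives. DY427469 was well above background on no F1 HS array and on 5 of 6 CR HS arrays. By the signals used here, its mean CR level was 2.74-fold the level set for F1. That F1 level was the higher of each array's faintest signal well above background and the probe's own. The CR mean includes replicate 1, which read 5.10 at DY427469, while the others read 6.42 to 7.18. The DY427469 call held under 4 of 31 alternatives, with a difference of -0.99 under normexp background correction.

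Of the placed genes, the autosomes held 18 called probes of 12 genes among 21498 probes and the X chromosome 1 (PRPS2) among 784. Chromosome 2 held 4 of the genes (ANGPTL6, CLEC4G, SLC27A1 and PLA2G16), with 5 of 1576 probes called (0.317%). Chromosome 11 held POSTN and MTRF1, with 6 of 452 probes called (1.33%), against 0.0837% over the autosomes. Of these 6, the 3 MTRF1 probes read nearly the same bases and 2 of the 3 POSTN probes share bases, so they are not separate measurements. At an unadjusted p under 0.05 stood 9.28% of autosomal and 11.6% of X probes.

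The mitochondrial genome stood out by that measure, with 56 of 128 probes (43.8%) and none called (smallest limma adjusted p = 0.152). It codes for 13 subunits of the respiratory chain and ATP synthase and is handed down by the mother. The breed of the F1 pigs' mothers is not in the labels, and its part in these values was not tested. Of the 56, 49 were higher in F1 and 7 lower, and all 56 had the same sign at TN, against 57.6% of all kept probes. HS and TN animals may be littermates with the same mother, so this agreement is not independent. The 128 probes read 13 genes of 1 small genome and are not separate measurements. Probes of the same gene gave different answers. At the COX2 probe at position 393, F1 HS animals read 15.91, 16.06 and 16.16 (lowest, median, highest) and CR HS animals 9.71, 13.40 and 15.79. CR replicate 1 was near F1 and CR replicates 5 and 6 were far below all. The difference was 3.34 (SE 0.875, limma adjusted p = 0.152) (from 0.15 on slide 1 to 6.22 on slide 5) and 3.65 at TN, and LW HS animals ranged from 13.30 to 15.96. At the COX2 probe at position 508 it was -0.01, with F1 HS at 17.80 to 17.96 and CR HS at 17.78 to 17.97.

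ND2, a subunit of complex I, had all 13 probes higher in F1, by 0.26 to 2.39, and 10 with an unadjusted p under 0.05. At its most different probe F1 HS animals read 15.88 to 16.23 and CR HS animals 12.62 to 13.78, except replicate 1 at 15.82. ND1 probes ran from -0.52 to 2.18, COX1 probes from -0.12 to 2.46, and ND4 probes from -0.21 to 0.09. By each gene's brightest probe the 13 genes differed by -0.27 to 0.44, with a median of 0.128.

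**Figure D4:**
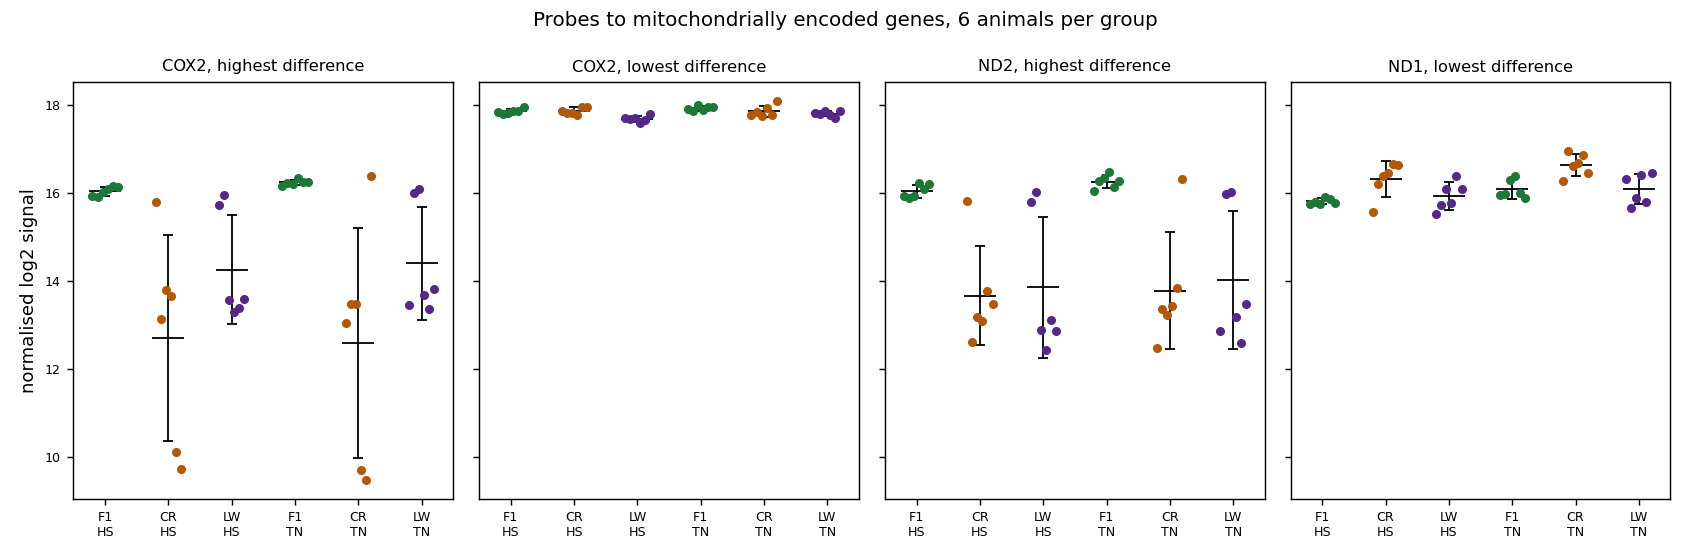
Normalised log2 signal (shared vertical axis) of 4 probes to mitochondrial genes in the 6 groups of 6 animals (horizontal axis), with the mean (dash) and SD (bars). At the COX2 probe with the highest difference and at the ND2 probe, F1 HS animals cluster near 16 while most CR HS animals lie below 14; at the other COX2 probe both groups lie between 17.78 and 17.97.

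The 22 pathway lists were described by each gene's brightest kept probe, beside a background of 11469 genes in which 10 were called (0.0872%), 4.84% were higher and 4.35% lower at an unadjusted p under 0.05, 50.5% were higher at all, and the median difference was 0.001. No list held a called gene, so the examples that follow are values and not changes. Counts of genes higher or lower are those at an unadjusted p under 0.05, except where given as higher or lower at all.

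Of 34 heat shock chaperones and their regulators, 1 was higher and 3 lower at an unadjusted p under 0.05, and the median was 0.000. HSP90AB1, a constitutive cytosolic chaperone, read 14.68 to 15.20 in F1 HS and 14.91 to 15.56 in CR HS (difference -0.28, limma adjusted p = 0.369). The collagen chaperone SERPINH1 differed by 0.37 and the HSP70 family member HSPA1L by -0.41. Of 35 antioxidant enzymes 4 were lower and none higher at an unadjusted p under 0.05, while 21 were lower and 14 higher at all. GPX4 differed by -0.22, SRXN1 by -0.75 and PRDX1 by -0.36, and the median was -0.042. Of 30 proteasome subunits 24 were lower at all, with a median of -0.081. PSMB3 differed by -0.75 and PSMD7 by 0.39 (limma adjusted p = 0.185 and 0.075).

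Among immune lists, all 12 genes of class II antigen presentation were higher in F1 at all, with a median of 0.248 under HS and -0.014 at TN, and 3 of them had an unadjusted p under 0.05. SLA-DRA, the alpha chain of the DR class II molecule, read 12.77, 13.23 and 13.36 (lowest, median, highest) in F1 HS and 11.99, 12.52 and 13.28 in CR HS. CR replicate 1 lay at the F1 level. Its difference was 0.58 (limma adjusted p = 0.365), that of SLA-DQB1 0.52 and that of the protease LGMN 0.31. Of the 11 macrophage markers, 10 were higher in F1 at all, with a median of 0.27 under HS and 0.142 at TN. The mean log2 level of these markers ran from 11.17 to 12.07 in F1 and from 11.22 to 11.56 in CR. F1 replicates 1 and 2 read 12.07 and 12 on this level, and the other 4 F1 animals 11.17 to 11.56, no higher than the highest CR animal. CD163, the haemoglobin scavenger receptor of macrophages, differed by 0.52 and C1QA by 0.35, neither called. Their part in the class II values was not tested. Of 21 genes of class I and antigen processing, 2 were higher and 1 lower (median -0.042), with SLA-3 at 0.52, CANX at 0.20 and SLA-1 at -0.27. Of 35 interferon-stimulated genes 1 was higher and 1 lower (median 0.058). ISG12(A) differed by 1.34, with F1 HS at 16.18 to 17.29 and CR HS at 14.09 to 16.58 (limma adjusted p = 0.24).

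Among lipid lists, 19 of 22 genes of cholesterol synthesis and uptake were lower in F1 at all, with a median of -0.156 under HS and -0.064 at TN, and 3 had an unadjusted p under 0.05 against 1 higher. SOAT2, which esterifies cholesterol in hepatocytes, read 11.38, 11.79 and 12.25 (lowest, median, highest) in F1 HS and 11.90, 12.61 and 12.80 in CR HS (difference -0.67, limma adjusted p = 0.351). PMVK and IDI1, enzymes of the mevalonate pathway, differed by -0.31 and -0.35. Of 27 genes of lipogenesis none had an unadjusted p under 0.05 (median 0.024), and PNPLA3 ran from 8.83 to 12.96 in F1 and 7.39 to 12.61 in CR, far wider within groups than between them. Of 28 genes of fatty acid oxidation 2 were higher and 2 lower (median -0.017), with ECI2 at -0.54, HSD17B4 at -0.17 and SLC25A20 at 0.31. Of 20 genes of bile acid synthesis and transport 1 was higher (median -0.030), with SLCO2B1 at 0.49, ABCC2 at -0.38 and NR0B2 at -0.65.

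In the growth axis, 3 of 21 genes were higher and 2 lower (median 0.010). IGF1, the main growth factor that the liver releases, read 8.63, 9.62 and 10.30 (lowest, median, highest) in F1 HS and 7.44, 8.39 and 9.25 in CR HS. The groups overlapped and the difference of 1.1 was not called (SE 0.361, limma adjusted p = 0.315), while at TN it was 0.14. IGF2R differed by -0.25. Of 34 genes of glucose and glycerol metabolism 1 was higher and 3 lower (median -0.012), with PDHA1 at -0.42, PCK2 at -0.29 and TPI1 at 0.43. Of 34 urea cycle and amino acid genes 1 was higher and 2 lower (median -0.073), with BHMT at -0.34 and GLUL at 0.61. Of 27 genes of glucocorticoid action, clock and thyroid hormone 1 was higher and 1 lower (median 0.003), with the clock repressor NR1D1 at -0.68, the deiodinase DIO2 at 1.34 and HSD11B1 at 0.14.

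None of 26 cytochrome P450 genes had an unadjusted p under 0.05 (median 0.056), with CYP1A1 at 0.67, CYP2D25 at -0.20 and CYP2B22 at -0.61. Of 19 conjugating enzymes 1 was lower (median -0.019), with GSTA4 at -0.68, NAT1 at 0.26 and GSTP1 at -0.57. Of 42 complement and coagulation genes 5 were higher and none lower at an unadjusted p under 0.05, while 28 were higher and 14 lower at all. Their median was 0.044, with CFP at 0.44 and F2 at 0.17. Of 26 acute phase proteins 1 was higher (median 0.033), with FGA at 0.28, APCS at -0.34 and FGG at 0.13. Of 20 iron genes 2 were lower (median -0.023), with PCBP2 at -0.43, FTL at -0.15 and BMP6 at -0.20. Of 21 transcription factors of hepatocyte identity 1 was higher (median -0.066), with FOXA3 at -0.25 and HNF4A at -0.27. Of 31 cell cycle genes 1 was lower, the median was 0.069 under HS and -0.205 at TN, and MKI67 differed by -0.30, CDC20 by -0.42 and CCNB1 by 0.40.

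**Figure D5:**
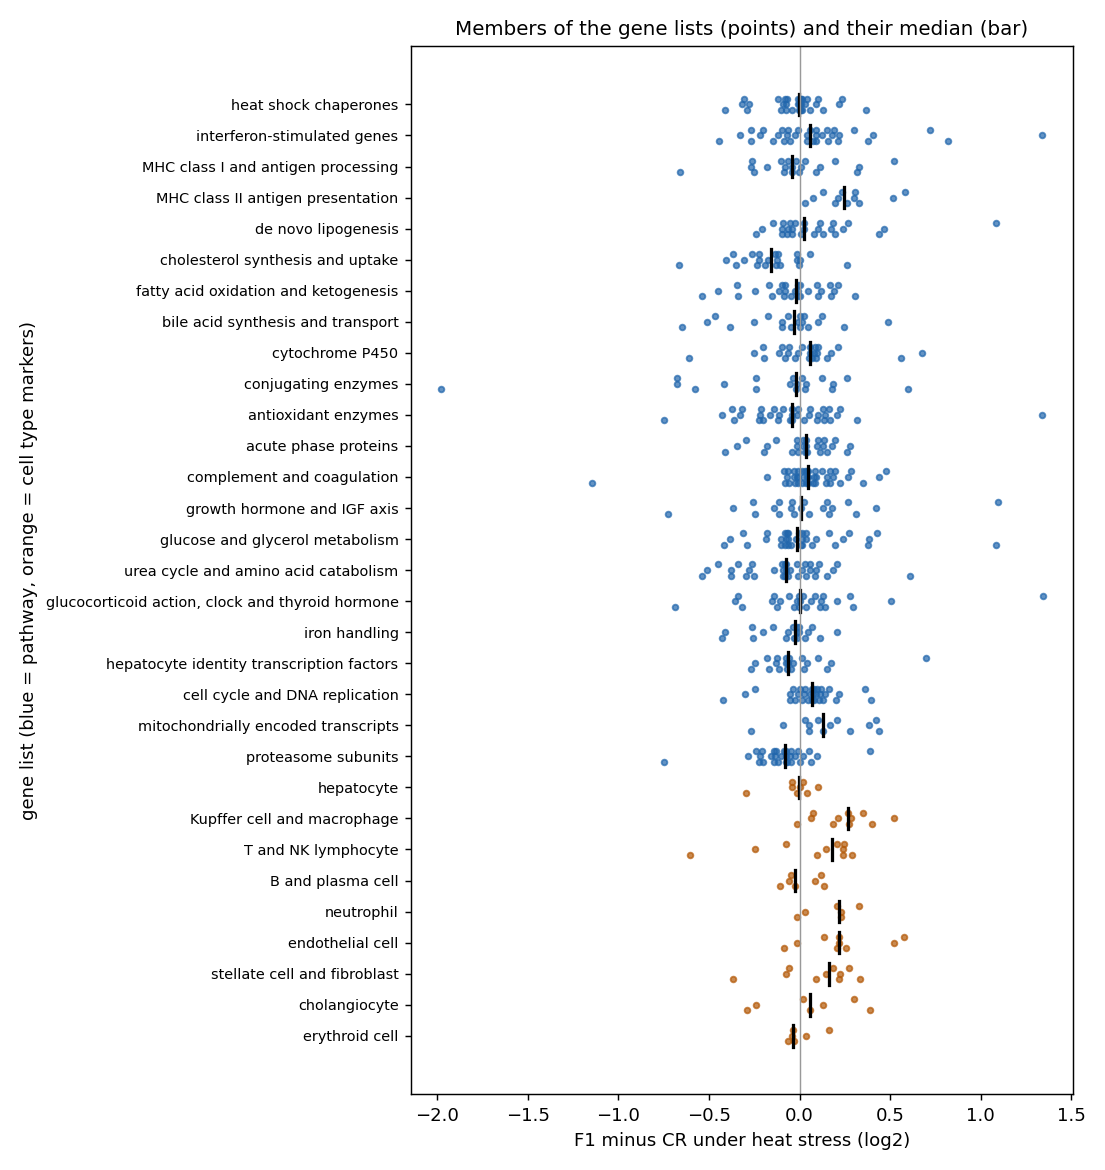
F1 minus CR difference under heat stress (horizontal axis, log2 signal) of each member of the 22 pathway lists (blue) and 9 cell type marker lists (orange), 1 point per gene at its brightest probe, with the list median as a bar. Most medians lie within 0.1 of 0; the medians of class II antigen presentation (0.248) and macrophage markers (0.27) lie to the right and that of cholesterol synthesis (-0.156) to the left.

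The remaining marker lists held no called gene. Of the 10 T and NK lymphocyte markers 7 were higher in F1 at all, and the median was 0.178. LCK differed by -0.24, GZMB by -0.60 and CD2 by 0.24. The 6 neutrophil markers had a median of 0.216. The medians of the 7 B cell, 7 cholangiocyte, 6 erythroid and 8 hepatocyte markers were -0.024, 0.055, -0.034 and -0.004, and APOA2 differed by -0.30.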

How the data were processed

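Liver RNA of 36 pigs was hybridised to 1-colour Agilent porcine arrays, 1 array per animal. The authors deposited scanner tables from Feature Extraction 10.10.1.1, in which spot signals are raw intensity values. A deposited series table holds log2 values of 42051 probes, quantile normalized per the methods. Its probe medians ran from 7.613 to 7.709 (5th to 95th percentile), against 5.456 to 13.6 in the scanner values. The values of the series table are therefore centred per probe. After each probe's mean was removed, they followed the scanner values in the same direction, with a correlation of 0.791 to 0.993. The study's methods name the array once as a mouse design and elsewhere as a porcine one; the probe names in the files refer to pig transcripts.

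Median spot signals were put on the log2 scale, then quantile normalized over 60306 non-control spots; 107 non-uniform spots were set missing, and probes well above background on 6 or more of 36 arrays were kept (44796 of 60305, 74.3%). Of these, 23917 carried one of 11469 symbols, from the files and the RefSeq table of Sscrofa11.1, which also gave gene coordinates. Limma 3.58.1 in R 4.3.3 fitted 6 group means over 36 arrays, with Benjamini-Hochberg adjustment over kept probes and a threshold of 0.05. The random effects of the study's model (pen, day, father and mother) are not in the labels. Arrays lay on 5 slides, each with F1 and CR HS arrays and scanned once.

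Groups came from sample labels, and replicate numbers only name animals. Genes were named where the brightest kept probe of a symbol, well above background on 4 or more of 6 arrays of a group, was called (at most 12 each way), with the 5 smallest interaction p-values and 3 members per list by smallest p; a few of these genes are not reported here. The comparison, the lists and the rule were chosen with earlier results of these data known. Other signals, filters, blocks, weights, one value per gene and left-out arrays or slides were tried. In simulated data over 44796 probes, 58% of 50 probes with a log2 difference of 0.5 and 92% of 50 with a difference of 1 were recovered in this comparison. The simulated noise was independent and of equal spread in all groups, and 183 probes were called there, against 39 in the real data. Recovery in the real data can therefore be lower. The number of arrays limits the precision.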

Additional observations from a re-analysis of the deposited data

Results flagged for a closer look

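In groups of 6 animals, the gap between the extreme animal and its neighbour was set against the group's whole range, for 268 groups of values given here. It passed Dixon's 95% limit in 19 (7.09%), and chance alone passes about 1 in 20 groups. CR HS replicate 6 gave 4 of them, more than any other animal.

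Among called probes, CR HS replicate 6 read 8.83 at CN157163 (others 5.24 to 6.04), replicate 1 read 5.10 at DY427469 (others 6.42 to 7.18) and 11.33 at OTTSUST00000001101 (others 8.24 to 9.36), and replicate 3 read 7.45 at the MTRF1 probe O7914 (others 7.77 to 7.91). F1 HS replicate 1 read 6.60 at TC610263 (others 6.91 to 7.05). In the first 3 cases the extreme animal read at or near the level of the other breed.

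Among genes not called, F1 HS replicate 1 read 5.97 at MKI67, replicate 4 read 8.45 at CCNB1 and 6.55 at CDC20, and replicate 6 read 12.17 at CFP and 14.19 at GPX4. CR HS replicate 2 read 9.99 at HNF4A and 14.16 at HSD17B4, replicate 4 read 5.52 at CD2, replicate 5 read 6.24 at CFTR and 10.15 at GSTA4, and replicate 6 read 6.68 at FOXA3, 11.11 at QKI and 9.28 at TRIP6. The median background of F1 HS replicate 6 was 18.0 intensity units (others 22.5 to 25.0).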

How the results depend on the processing

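The count of 39 probes called under HS fell to 11 in a fit of the 12 arrays, 12 with normalization and fit on the 24 F1 and CR arrays (10 shared), 15 with the processed signal scaled to its 75th percentile (9 higher and 6 lower, all 15 shared) and 19 with array row and column as terms. With one value per gene, 7 of 11469 genes were called, against 10 at their brightest probe. It was 97 without F1 HS replicates 1 and 2 and F1 TN replicate 3, which were left out because their arrays stood apart. The count was between 17 and 59 without single animals, and 25, 9, 13 and 11 without slides 1 to 4 and 54 without slide 5 (19 shared). It lay between 29 and 47 under normexp (31), the authors' table (33, of which 24 shared), other filters, slide as a fixed or random block (35 and 44), array weights and a robust spread. The TN count of 34 probes was 20 to 73 without single animals, and 12, 4 and 71 without slides 3, 4 and 5. At TN 8 genes were called with one value per gene, against 12 at their brightest probe. The interaction count was 0 under every alternative run. The causes were not tested.

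TC592761, A_72_P352383 and TC553889 were called under every alternative run for them, MTRF1 (A_72_P191081) under 32, NOL11 under 31 and POSTN (A_72_P618531) under 30 of 33. CLEC4G was called under 12, MIC-2 (A_72_P555381) under 11, PRPS2 under 14, KYAT3 under 17, PLA2G16 under 17 and 18 at its 2 probes, ANGPTL6 under 10 and TEX10 under 9 of 33. CN157163 was called under 7 and DY427469 under 4 of 31. No called probe changed sign. Of genes not called, IGFBP2 passed the threshold with array weights (-0.82) and without F1 HS replicate 4 (-0.85), and PSMD7 with normexp (0.41) and without F1 HS replicate 6 (0.45). With one value per gene the endothelial list had 0 called genes, and SLA-1 (0.04), PDHA1 (0.12), ALB (-0.01), LCK (0.01) and SLC4A1 (-0.01) changed sign; so did CXCR2 and S100A9 without F1 HS replicates 1 and 2, their values without animals running from -0.03 to 0.3 and from -0.03 to 0.28.

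No paired analysis was possible because replicate numbers follow accession order and pair no animals. At a log2 difference of 0.5 the simulated comparison missed part of the true differences.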
